A study of Homo sapiens with 3 samples.

Results

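Levels of 10 heat shock chaperone genes, chosen by symbol from the 33538 features of each library, are described here in stem-cell-derived alpha cells. The genes are HSPA1A, HSPA1B, HSPA8, HSP90AA1, HSP90AB1, DNAJB1, HSPB1, HSPD1, HSPE1 and HSPH1, and all 10 were found as 1 row each. The starting cells were HUES8, a widely used line of human embryonic stem cells, and were differentiated by a published protocol toward alpha cells, the islet cells that secrete glucagon. The labels put the 3 libraries in 1 group, SC-A, numbered as replicates 1 to 3, with no other genotype, treatment or time point named. Before loading, clusters were washed cold and dispersed with the enzyme TrypLE for 10 minutes at 37 °C. With 1 group, each comparison sets sets of cells against each other within the libraries. Nothing in the labels says that the replicates were separate differentiations. In the main fits library was a block, which takes out level differences between libraries. A p-value there weighs a difference between sets of cells against its variation from library to library, which may be technical alone. Bands were fitted together, as were classes, so that variation was not estimated from the compared sets alone.

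Heat shock proteins are chaperones that bind unfolded or newly made proteins and help them to fold. When unfolded protein builds up, for example on heating, the transcription factor HSF1 binds heat shock elements in the promoters of these genes and raises their transcription. Some of the genes are also highly transcribed in unstressed and growing cells, and dispersal of tissue by enzymes at body temperature is known to raise heat shock and immediate early transcripts in single-cell data. HSPA1A and HSPA1B encode the stress-inducible Hsp70, and HSPA8 encodes the constitutive Hsc70. DNAJB1, a J-domain protein, delivers substrates to Hsp70, and HSPH1, an Hsp110, exchanges its nucleotide. HSP90AA1 and HSP90AB1 encode the alpha and beta forms of cytosolic Hsp90. HSPB1 is a small heat shock protein that holds unfolded proteins without using ATP. HSPD1 and HSPE1 encode Hsp60 and Hsp10, the chaperonin of the mitochondrial matrix.

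In the GRCh38 annotation of GENCODE 29, HSPA1A (chromosome 6, 31815464 to 31817946, plus strand) and HSPA1B (chromosome 6, 31827735 to 31830255, plus strand) lie 9789 bases apart. They are near-identical copies, so how their UMIs were divided is uncertain, and reads that fit both copies may not have been counted, so that the CPM of both may be too low. HSPD1 (chromosome 2, 197486581 to 197516737, minus strand) and HSPE1 (chromosome 2, 197499994 to 197503457, plus strand) overlap on opposite strands. The other genes are HSPA8 (chromosome 11, 123057489 to 123063230, minus strand), HSP90AA1 (chromosome 14, 102080738 to 102139699, minus strand), HSP90AB1 (chromosome 6, 44246166 to 44253888, plus strand), DNAJB1 (chromosome 19, 14514770 to 14529770, minus strand), HSPB1 (chromosome 7, 76302544 to 76304295, plus strand) and HSPH1 (chromosome 13, 31134974 to 31162388, minus strand). All 10 are protein-coding. HSPA8, HSPD1, HSPE1 and both HSP90 genes have processed copies elsewhere in the genome, which could take some of their reads.

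Heat shock elements were looked for in the 250 bases before each RefSeq start site (GRCh38.p14), where all 10 genes had at least 1 of 16 promoters. The motif was 3 units that alternate between GAA and its reverse complement TTC, each 2 bases of any kind from the next, so that a match on 1 strand is a match on the other and longer runs count as 1 element. It stood before HSPD1, HSP90AB1, HSPA8 and HSP90AA1, that is 4 of 10 genes and 4 of 16 promoters (25.0%), against 155 of 35116 promoters in the whole table (0.441%). For HSPD1, HSP90AB1 and HSP90AA1 only 1 of the start sites had it, and the others had none. With 2 units in place of 3, 8 of the 16 promoters, of 8 genes, held a match, against 11.6% of all promoters. A match describes the letters only, and no binding was measured here. In cycling cells below, the 4 genes with 3 units were higher, but so were HSPE1 and HSPB1, which held no such match in the 250 bases searched. HSPA1A, HSPA1B, DNAJB1 and HSPH1, also without such a match, did not pass there. The element of HSPD1 (197500068 to 197500085) also lies before the RefSeq start site of HSPE1 (197500379), outside the bases searched for HSPE1. Whether the motif goes with the calls in cycling cells was not tested. The 6 stretches shown are those of the 4 genes with 3 units and of the stress-inducible pair, HSPA1A and HSPA1B. Each is 30 bases, 5′ to 3′ on the gene's strand, with the element in capitals.
HSP90AA1, chr14:102087112-102087141, minus strand: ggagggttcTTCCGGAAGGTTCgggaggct
HSP90AB1, chr6:44247822-44247851, plus strand: ctgagattgTTCTGGAAGCTTCtggattct
HSPA8, chr11:123062171-123062200, minus strand: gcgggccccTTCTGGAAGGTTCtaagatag
HSPD1, chr2:197500061-197500090, minus strand: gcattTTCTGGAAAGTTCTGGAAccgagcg
HSPA1A, chr6:31815426-31815455, plus strand: cgaaaaccctgGAATATTCccgacctggca
HSPA1B, chr6:31827622-31827651, plus strand: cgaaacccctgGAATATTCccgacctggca
The elements of HSP90AA1, HSP90AB1 and HSPA8 end 76, 100 and 43 bases before a start site, and lie within the annotated spans of their own genes. That of HSPD1 ends 228 bases before a start site and lies within the annotated spans of both HSPD1 and HSPE1. HSPA1A and HSPA1B hold a match of 2 units, and over the stretch before their starts 235 of 249 bases are identical (94.4%, at a shift of 1 base).

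A UMI is a tag that marks 1 captured RNA molecule, and the libraries of replicates 1, 2 and 3 summed to 30139788, 31122791 and 30980799 UMIs. Of their barcodes, 1899, 1340 and 2458 had at least 1000 genes, with median depths of 13954, 20326.5 and 9914.5 UMIs, and 1 barcode was shared between 2 libraries. Cells were sorted into bands by the share of their UMIs from mitochondrial genes: under 10% (156, 181 and 189 cells), 10 to 20% (1004, 846 and 1277), 20 to 30% (298, 205 and 656) and 30% or more (441, 108 and 336). Cells under 30% were also sorted by UMI rules into classes. GCG-rich cells had at least 5% of UMIs from GCG, the glucagon gene, and met none of the other criteria (1066, 1005 and 1289 cells). With GCG under 5%, TPH1-positive cells had at least 3 UMIs of TPH1, the gene of a serotonin-synthesis enzyme (46, 28 and 162). Cycling cells had at least 3 of 8 cell cycle genes (18, 8 and 26), and collagen-positive cells had at least 5 UMIs of COL1A1, COL1A2 and COL3A1 (9, 9 and 85). The remainder met no criterion (306, 170 and 531). The classes are named by these rules and are not cell types. Of the alpha cell markers that the rule did not use, TTR stood at 72689, 71693 and 74416 CPM (UMIs scaled to a common total) and IRX2 at 404, 441 and 394 CPM in GCG-rich cells, against 798, 439 and 658 CPM and 40.2, 129 and 33.7 CPM in collagen-positive cells. The remainder also carried alpha markers other than GCG. All 8 summed there to 76567.5, 73528.5 and 77476.6 CPM, of which GCG gave 16815.5, 18652.7 and 20827.4. In GCG-rich cells they summed to 223655, 233654 and 201032 CPM, of which GCG gave 146617, 158042 and 122757.

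Levels are given as CPM over the summed cells of a set. UMIs are counted at the 3′ end and capture may differ between transcripts, so sums over genes describe UMIs and no order of RNA levels between genes is read from them. In GCG-rich cells the stress-inducible genes had few UMIs. HSPA1A stood at 22.7, 33.8 and 25.1 CPM in replicates 1, 2 and 3, and HSPA1B at 10.9, 21.5 and 15.8 CPM. Replicate 2 was the highest for both. Of the 2 partners of Hsp70, DNAJB1 was at 27.7, 27.5 and 39.2 CPM and HSPH1 at 72.1, 76.5 and 95.8 CPM. Summed, these 4 genes gave 156 ± 21.4 CPM (SD, n = 3) of the 2435 ± 311 CPM of all 10. HSPA6, a further Hsp70 gene that is almost silent without stress, was at 0, 0 and 0.0685 CPM in GCG-rich cells, where HSF1, the factor itself, was at 22.0, 25.4 and 23.0 CPM. BAG3, a co-chaperone that HSF1 induces, was at 4.36, 5.45 and 4.11 CPM.

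The Hsc70 gene and both Hsp90 genes, transcribed also without stress, varied between libraries. HSPA8 stood at 443, 388 and 463 CPM in the GCG-rich cells of replicates 1, 2 and 3. HSP90AA1 was at 528, 576 and 731 CPM, and HSP90AB1 at 589, 631 and 824 CPM. Replicate 3 was the highest for all 3 of these genes. The chaperonin pair varied less between libraries, with HSPD1 at 206, 223 and 236 CPM and HSPE1 at 264, 301 and 296 CPM. HSPB1 was at 35.0, 41.4 and 61.9 CPM. After each cell was thinned to 5000 UMIs (54, 90 and 79 shallower cells left out), a UMI of HSP90AB1 was seen in 95.02 ± 2.35% (SD, n = 3) of GCG-rich cells, of HSPD1 in 64.1 ± 3.27% and of HSPA1A in 11.8 ± 2.20%. Unthinned, the shares were 99.2, 90.7 and 29.2%. No class here is known to lack these genes, so what free RNA adds to such shares was not tested.

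Cell-to-cell variation in GCG-rich cells was described by a ratio of variance to mean. Over thinned cells, the variance of HSPA1A divided by its mean (1 for random sampling) was 1.18, 1.26 and 1.03 in replicates 1, 2 and 3, and no cell held more than 6 of its UMIs. For HSPB1 it was 1.17, 1.06 and 1.12. For HSP90AA1, with the highest ratio of the 10 genes, it was 1.39, 1.54 and 1.54. The ratio tends to stay near 1 where a gene has few UMIs per cell, so it does not rank the genes by variation. Means over thinned cells were 0.120, 0.165 and 0.115 UMIs for HSPA1A and 2.67, 2.94 and 3.69 UMIs for HSP90AA1. The 5% of cells with the most HSPA1A UMIs, before thinning, held 35.6, 36.5 and 42.6% of them. Across GCG-rich cells under 20% mitochondrial UMIs (850, 852 and 911 cells), correlations between the 10 genes were weak and are given as a description: HSPA8 with HSP90AA1 had the highest mean r over libraries (0.28, 0.25 and 0.16), and HSPA1A with HSPA1B reached 0.04, 0.14 and 0.05. Of 5374 genes ranked by mean r with the sum of HSPA1A, HSPA1B, DNAJB1 and HSPH1, the highest were MT-ND4 (0.18), MALAT1 (0.17), MT-ND5 (0.16), SLC7A2 (0.16) and DSP (0.16). These points share library and depth, and r in replicate 2 was above that of the other libraries for each of the 5 genes.

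**Figure D1:**
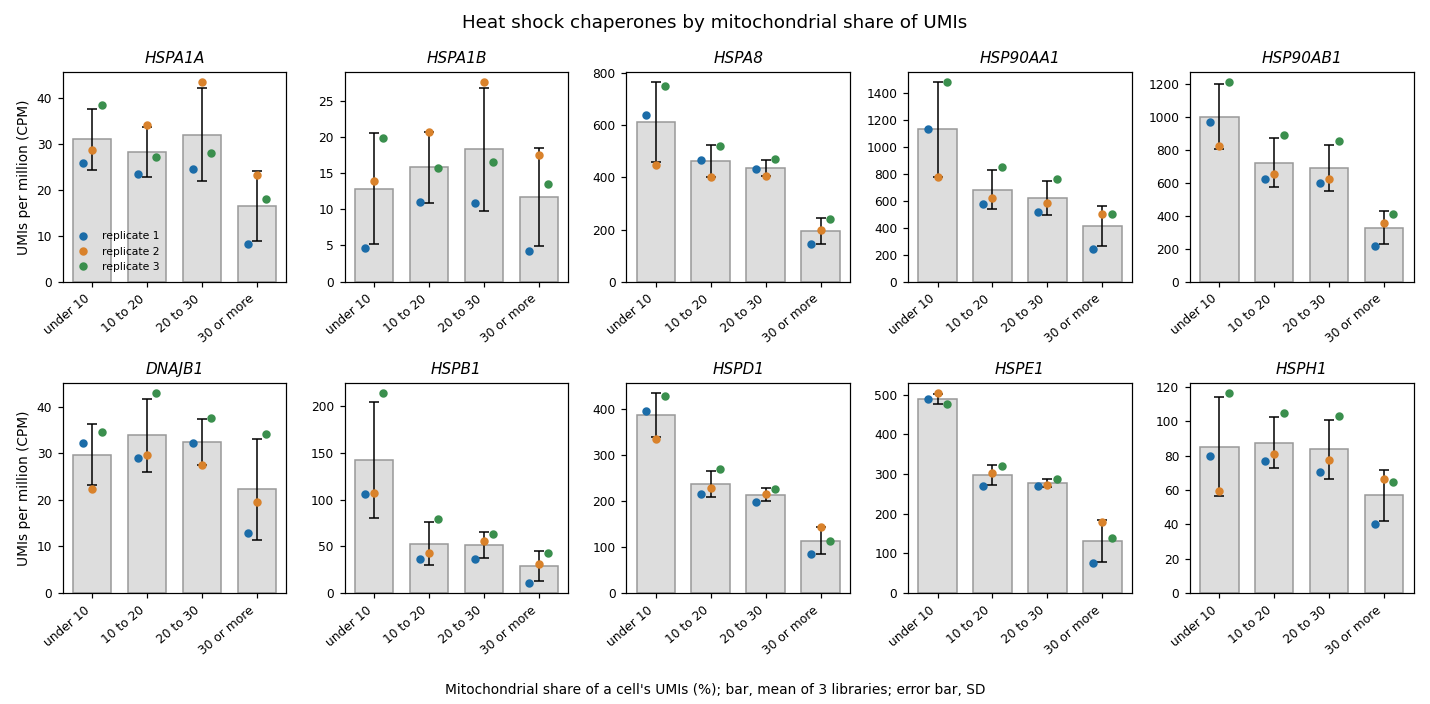
CPM (y axis, from 0) of each gene in 4 bands of mitochondrial share (x axis, %), with 1 point per library, grey bars for the mean of 3 libraries and error bars for the SD. The bands from 10 to 20% and from 20 to 30% lie at like heights, HSPB1 is higher in the band under 10%, and the means are lowest at 30% or more.

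Cells with a mitochondrial share of 20 to 30% were set against those with 10 to 20% in the same library. A high mitochondrial share is often used as a sign of damaged cells, and the question was whether the chaperone genes differ with it. None of the 10 genes passed the test (edgeR quasi-likelihood on UMI sums, library as block, adjusted p under 0.05; n = 3 libraries). At an unadjusted p under 0.05 the count was also 0 of 10, as it was with DESeq2. Over all 13430 genes tested, 0 (0%) were higher and 1 (0.00745%) was lower, against 234 and 348 at an unadjusted p under 0.05 and 17 and 14 called by DESeq2, so the comparison called almost nothing. HSPA1A was at 23.4, 34.2 and 27.1 CPM in the 10 to 20% band and at 24.5, 43.5 and 28.1 CPM in the 20 to 30% band of the 3 replicates. It was higher in each library, by 0.25 ± 0.13 (log2, SE; 95% interval -0.0067 to 0.50), and the ranges of the bands overlapped. HSPA1B went from 10.9, 20.6 and 15.8 CPM to 10.9, 27.6 and 16.5 CPM, a difference of 0.26 ± 0.18. For the other 8 genes the log2 differences lay between -0.06 (HSPD1) and 0.09 (HSPB1), and the intervals of HSPA8 and HSP90AB1 reached from -0.20 to 0.22 and from -0.16 to 0.21. FOS, an immediate early gene that dispersal is known to raise, differed by -0.39 ± 0.14 (adjusted p = 0.952) between the bands over the same cells.

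The same comparison within cells of at least 5% GCG gave no call among the 10 genes either, with 50 (0.412%) of 12145 genes higher and 13 (0.107%) lower. HSPA1A differed there by 0.26 ± 0.10 (edgeR adjusted p = 0.413), HSPA1B by 0.35 ± 0.12 (adjusted p = 0.352) and HSPB1 by 0.21 ± 0.09 (adjusted p = 0.575). These 3 were the genes with an unadjusted p under 0.05. In cells at 30% or more the 10 genes summed to 846, 1535 and 1576 CPM, below the 2330, 2415 and 3120 CPM of the 10 to 20% band in every library. The mitochondrial UMIs themselves take up more of the total there, and that band was not tested.

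In the band under 10%, 5 of the 10 genes were higher than at 10 to 20% and 0 were lower, with 20.6% of all 13430 genes higher and 15.3% lower, so broad differences surround these calls. HSPB1 differed the most: it was at 36.5, 43.1 and 79.1 CPM at 10 to 20% and at 106, 107 and 214 CPM under 10%. The lowest library under 10% lay above the highest at 10 to 20%, and the log2 difference was 1.33 ± 0.13 (adjusted p = 0.000126, n = 3). The mitochondrial pair was likewise higher in each library, HSPE1 going from 269, 303 and 320 CPM to 489, 503 and 477 CPM (0.61 ± 0.10) and HSPD1 from 214, 228 and 268 CPM to 394, 334 and 428 CPM (0.59 ± 0.10). Both Hsp90 genes passed as well, HSP90AA1 at 0.59 ± 0.12 and HSP90AB1 at 0.36 ± 0.09, but their calls were lost without replicate 1 (adjusted p = 0.0844 and 0.175) and without replicate 3 (0.0569 and 0.121), and without the replicate block (0.0636 and 0.171). That of HSP90AB1 was also lost with no filter on low counts (0.23, adjusted p = 0.217). HSPA8 (0.27 ± 0.11, adjusted p = 0.0748), HSPA1A (0.06 ± 0.17), HSPA1B (-0.34 ± 0.26), DNAJB1 (-0.30 ± 0.12) and HSPH1 (-0.17 ± 0.12) did not pass. HSPA8 was called higher with DESeq2 (0.30, adjusted p = 0.0185), with plain totals (0.39, 0.0221), without replicate 2 (0.28, 0.0468) and in cells of at least 2000 genes (0.38, 0.0288). DNAJB1 was called lower with no filter on low counts (-0.44, adjusted p = 0.025).

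The cells of this band were another mixture. GCG stood at 66546, 114302 and 44620 CPM under 10% and at 131223, 147755 and 95045 CPM at 10 to 20%. The 8 cycling markers summed to 1060, 283 and 826 CPM against 36.5, 36.1 and 85.8 CPM, and the 7 mesenchymal markers to 855, 353 and 4178 CPM against 37.8, 40.1 and 277 CPM. Median depth was lower, 3815.5, 3980 and 8188 UMIs per cell. In cells of at least 5% GCG the 8 cycling markers summed to 22.2, 19.9 and 15.6 CPM under 10% and to 4.37, 35.3 and 5.75 CPM at 10 to 20%. Within these cells none of the 10 genes passed (2.14% of 12145 genes higher, 0.609% lower). At an unadjusted p under 0.05 there were 3 higher and 1 lower. HSPB1 was at 34.0, 39.0 and 63.1 CPM and at 51.1, 63.6 and 81.7 CPM in the bands of these cells, a difference of 0.54 ± 0.16 (adjusted p = 0.0504). HSPD1 differed by 0.32 ± 0.10 (adjusted p = 0.0925), HSPE1 by 0.35 ± 0.12 (adjusted p = 0.101), HSP90AA1 by 0.05 ± 0.12 and HSP90AB1 by 0.12 ± 0.12. The gap in HSP90AA1 was thus 0.59 over all cells and 0.05 in cells of at least 5% GCG. The difference between these values was not tested.

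**Figure D2:**
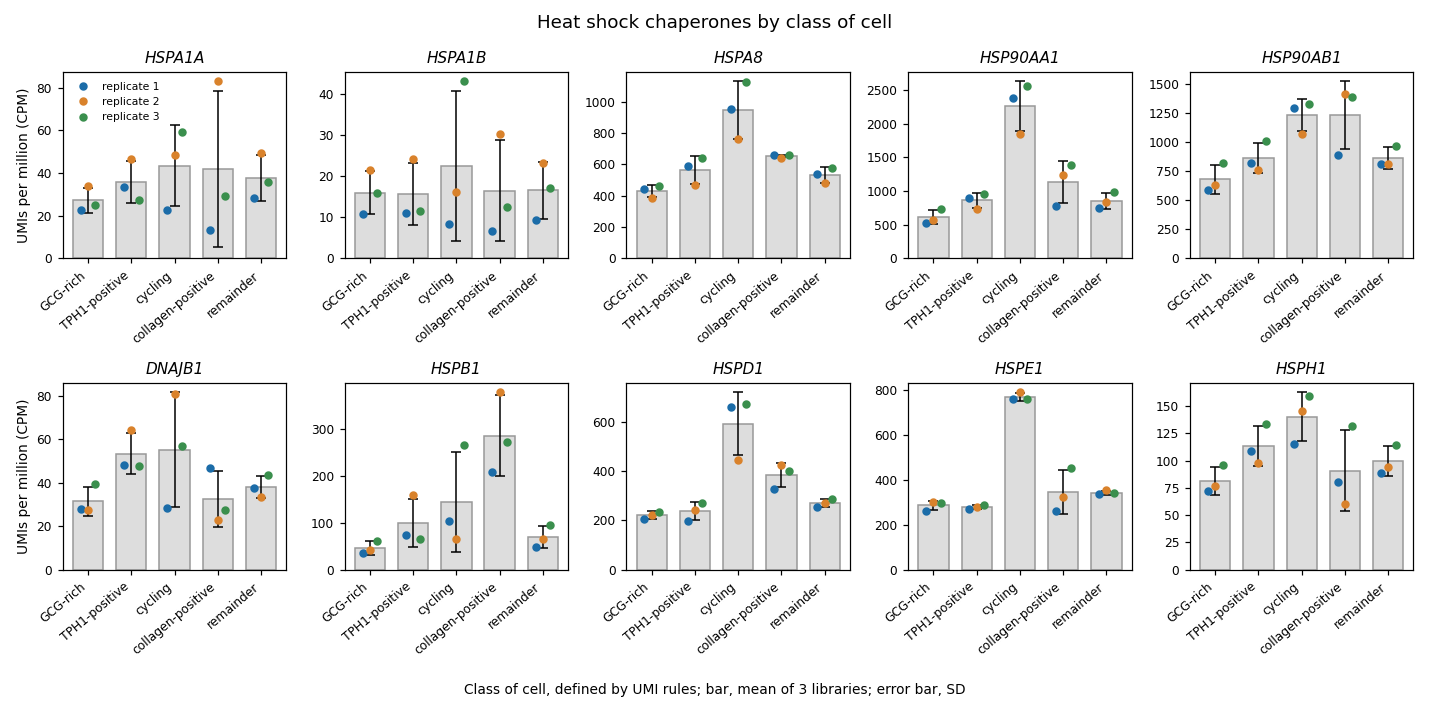
CPM (y axis, from 0) of each gene in 5 classes of cells (x axis), with 1 point per library, grey bars for the mean of 3 libraries and error bars for the SD. HSP90AA1, HSPD1 and HSPE1 are highest in the cycling class and HSPB1 in the collagen-positive class, while HSPA1A and HSPA1B spread widely with overlapping points.

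Cycling cells had the highest sum of the 10 genes, 6330, 5272 and 7025 CPM in replicates 1, 2 and 3, against 2199, 2320 and 2787 CPM in GCG-rich cells. The test used the 2 libraries with at least 10 cycling cells, replicates 1 and 3, and left replicate 2 with its 8 cells out. In it, 6 of 10 genes were higher and 0 lower, with 21.6% of 13861 genes higher and 23.2% lower. The comparisons of classes share the GCG-rich cells. HSP90AA1, the alpha form of Hsp90, was at 2387, 1849 and 2554 CPM in cycling cells (848, 229 and 945 UMIs) against 528, 576 and 731 CPM, with no overlap. Its log2 difference was 1.51 ± 0.12 (adjusted p = 1.14e-10). In the left-out replicate 2, 1 of the 8 cycling cells held 56.3% of these UMIs, and the median cell was at 1022 CPM. HSP90AB1, the beta form, went from 589, 631 and 824 CPM to 1292, 1074 and 1327 CPM, a smaller difference of 0.43 ± 0.12 (adjusted p = 0.0035). UMIs of HSP90AA1 per UMI of HSP90AB1 were 0.899 ± 0.0128 (SD, n = 3) in GCG-rich cells and 1.83 ± 0.102 in cycling cells. Capture of the 2 transcripts may differ, so the ratio is read between classes and not as a molar ratio.

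The chaperonin genes followed in the same direction. HSPD1 was at 659, 444 and 673 CPM in cycling cells (1.12 ± 0.11, adjusted p = 1.13e-08) and HSPE1 at 760, 791 and 760 CPM (0.96 ± 0.10, adjusted p = 4.16e-08), above every GCG-rich library. HSPA8 was at 954, 759 and 1127 CPM (0.71 ± 0.11, adjusted p = 6.34e-06), also without overlap. HSPB1 was at 104, 64.6 and 265 CPM, each above the highest GCG-rich library at 61.9 CPM but on 37, 8 and 98 UMIs, and differed by 1.54 ± 0.27 (adjusted p = 4.6e-05). The levels of replicate 2 leaned on few cells. There the cycling cell with the most UMIs held 47.3% of those of HSPD1, 60.2% of HSPE1, 41.5% of HSPA8 and 62.5% of HSPB1. The stress-inducible genes did not pass. HSPA1A was at 22.5, 48.4 and 59.5 CPM on 8, 6 and 22 UMIs (0.34 ± 0.29, 95% interval -0.24 to 0.91), HSPA1B at 8.44, 16.1 and 43.2 CPM on 3, 2 and 16 UMIs (0.51 ± 0.38), DNAJB1 at 28.1, 80.7 and 56.8 CPM (-0.09 ± 0.28) and HSPH1 at 115, 145 and 159 CPM (0.24 ± 0.16). These intervals leave room for differences of at least 0.91 in HSPA1A and 1.25 in HSPA1B. The differences are relative to TMM scaling. With plain totals, where the median gene differed by 0.28, 9 of the 10 genes were called higher, HSPA1A (0.80), HSPA1B (0.97) and HSPH1 (0.71) among them. Of all 13861 genes, 4198 were higher and 1775 lower with plain totals.

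Cycling cells also differed from GCG-rich cells in their makeup. Their median mitochondrial share was 8.07, 5.39 and 8.95% against 16.0, 15.7 and 17.1%, and the 5 neural markers (FABP7, SOX2, NES, STMN2 and TUBB3) summed to 4503, 2866 and 2419 CPM against 214, 164 and 274 CPM. Cells of 10 to 20% mitochondrial share alone, in sums of at least 5 cells, kept 5 of the 6 calls. That fit rested on 2 cycling sums, of only 6 cells in replicate 1 and 8 cells in replicate 3. Of its 10840 genes, 1140 were higher and 914 lower. There HSP90AA1 differed by 1.30, HSPB1 by 1.61, HSPD1 by 0.75, HSPA8 by 0.70 and HSPE1 by 0.57. HSP90AB1 differed by 0.08 there (adjusted p = 0.753), and its call was also lost without replicate 1 (0.25, adjusted p = 0.23), in sums of at least 5 cells (0.33, adjusted p = 0.0513), fitted with GCG-rich cells alone (adjusted p = 0.0549) and with the class taken irrespective of GCG (0.28, adjusted p = 0.0981). Against the remainder, which also had GCG under 5%, the same 6 genes were higher (18.5% of 13861 genes higher, 21.2% lower): HSP90AA1 by 1.33 ± 0.12, HSPB1 by 1.24 ± 0.27, HSPD1 by 1.14 ± 0.11, HSPE1 by 1.01 ± 0.11, HSPA8 by 0.72 ± 0.11 and HSP90AB1 by 0.39 ± 0.12. In the left-out replicate 2, HSPB1 was at 64.6 CPM in cycling cells and 65.1 CPM in the remainder. The call of HSP90AB1 was again lost without replicate 1 (adjusted p = 0.277), without the replicate block (0.066) and with the class taken irrespective of GCG (0.187). The part of the neural markers in these differences was not tested.

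In collagen-positive cells HSPB1 stood out from the other 9 genes. It was at 208, 378 and 272 CPM (31, 50 and 258 UMIs) against 35.0, 41.4 and 61.9 CPM in GCG-rich cells, with a log2 difference of 2.16 ± 0.27 (adjusted p = 8.02e-07, n = 3, sums of at least 5 cells). Thinned to 5000 UMIs (0, 0 and 6 shallower cells left out), 68.5 ± 11.6% (SD, n = 3) of collagen-positive cells and 18.8 ± 4.98% of GCG-rich cells had a UMI of it, and unthinned 88.2% of the 85 collagen-positive cells of replicate 3 did (exact Clopper-Pearson 95% interval 79.4 to 94.2%, counting error only). In all, 4 of 10 genes were higher and 0 lower, where 23.1% of 10880 genes were higher and 31.2% lower. HSP90AA1 was at 778, 1240 and 1383 CPM (0.54 ± 0.15, adjusted p = 0.00431) and HSP90AB1 at 892, 1414 and 1388 CPM (0.51 ± 0.14, adjusted p = 0.00411), each above every GCG-rich library. HSPD1 passed (0.43 ± 0.15, adjusted p = 0.0233) while its partner HSPE1, at 262, 325 and 454 CPM, differed by -0.0057 ± 0.15, which turns to 0.35 (adjusted p = 0.056) with plain totals, where the median gene differed by 0.14. The ratio of HSPE1 to HSPD1 UMIs was 0.899 ± 0.204 (SD, n = 3) in this class and 1.29 ± 0.0491 in GCG-rich cells.

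Replicate 3 holds 85 of the 103 collagen-positive cells. Without it the calls of HSP90AA1 (0.55, adjusted p = 0.0703) and HSPD1 (0.50, adjusted p = 0.109) were lost, and in cells of 10 to 20% mitochondrial share HSPD1 differed by 0.22 (adjusted p = 0.311). The call of HSPD1 was also lost with no filter on low counts (adjusted p = 0.159) and with GCG-rich cells as the only other class fitted (0.135). HSPA1A was at 13.4, 83.2 and 29.5 CPM in this class on 2, 11 and 28 UMIs (0.03 ± 0.27), HSPA1B differed by -0.56 ± 0.38, DNAJB1 by -0.55 ± 0.29, HSPH1 by -0.02 ± 0.16 and HSPA8, at 657, 643 and 656 CPM, by 0.24 ± 0.13. None of these 5 passed. HSPA8 lay above every GCG-rich library in CPM and was called higher with DESeq2 (0.27, adjusted p = 0.00997) and with plain totals (0.59, adjusted p = 0.000589), and DNAJB1 was called lower with stricter class thresholds (-0.78, adjusted p = 0.0407). The 7 mesenchymal markers summed to 8543, 6230 and 8358 CPM here, as the rule asks, and ductal or progenitor markers (KRT19, SOX9, KRT17 and SPP1) to 6243, 7720 and 356 CPM, so that the class was not of 1 kind across libraries.

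TPH1-positive cells showed no higher chaperone gene and 2 lower ones relative to GCG-rich cells, where 9.99% of 13861 genes were higher and 11.2% lower (n = 3). HSPE1 differed by -0.53 ± 0.09 (adjusted p = 0.000106) and HSPD1 by -0.38 ± 0.10 (adjusted p = 0.00657) after TMM scaling, but with plain totals, where the median gene differed by 0.46, HSPE1 differed by -0.03 and HSPD1 turned to 0.11, neither passing. The call of HSPD1 was also lost without replicate 1 (adjusted p = 0.0795), without replicate 2 (0.0508), without the replicate block (0.0782) and with the class irrespective of GCG (0.056). Their CPM show the same: HSPD1 was at 198, 241 and 272 CPM and HSPE1 at 270, 279 and 287 CPM in TPH1-positive cells, overlapping the GCG-rich libraries. The other 8 genes did not pass. HSPA1B differed the most of them, by -0.67 ± 0.26 (adjusted p = 0.0769), and was called lower with no filter on low counts (-0.77, adjusted p = 0.0261). The rest included HSP90AA1 at 895, 737 and 953 CPM (0.0072 ± 0.10), HSPA8 at 592, 467 and 637 CPM (-0.10 ± 0.09) and HSPH1 at 109, 97.4 and 133 CPM (-0.00085 ± 0.11). With plain totals 6 genes were called higher, as were 5330 of all genes against 557 lower. HSPB1 was at 74.0, 159 and 65.2 CPM (0.39 ± 0.22, adjusted p = 0.234). Without replicate 3 it was called higher (1.04, adjusted p = 2.17e-08), but on 40 and 72 UMIs in replicates 1 and 2. Of these, 1 cell held 32.5% in replicate 1 and 1 cell held 18.1% in replicate 2.

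The remainder did not differ from GCG-rich cells by the test in any of the 10 genes, with 0 also at an unadjusted p under 0.05 and 0 with DESeq2, where 7% of 13861 genes were higher and 2.59% lower. The log2 differences ran from -0.26 ± 0.15 (HSPA1B) to 0.30 ± 0.16 (HSPB1), with HSP90AA1 at 0.18 ± 0.10. With plain totals the median gene differed by 0.31, and the fit called 8 of the 10 genes higher, beside 5317 genes higher and 53 lower in all. By mean CPM over 3 libraries, HSP90AA1 ranked from cycling (2263 ± 368, SD) through collagen-positive (1134 ± 316), TPH1-positive (862 ± 112) and remainder (855 ± 120) to GCG-rich cells (612 ± 106). The remainder and TPH1-positive levels lay within their spread of each other. The cycling class lay above every other class in all libraries. The GCG-rich class lay below every other, though narrowly: its highest library was at 731 CPM and the lowest TPH1-positive library at 737 CPM. In replicate 2, 56.3% of the cycling UMIs of HSP90AA1 came from 1 cell. For HSPB1 the order was collagen-positive (286 ± 86.0), cycling (145 ± 106), TPH1-positive (99.5 ± 52.0), remainder (69.5 ± 24.2) and GCG-rich (46.1 ± 14.03), where each class overlapped its neighbours in the order. HSPA1A means lay between 27.2 ± 5.85 (GCG-rich) and 43.5 ± 19.0 (cycling), with overlapping libraries in all 5 classes.

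**Figure D3:**
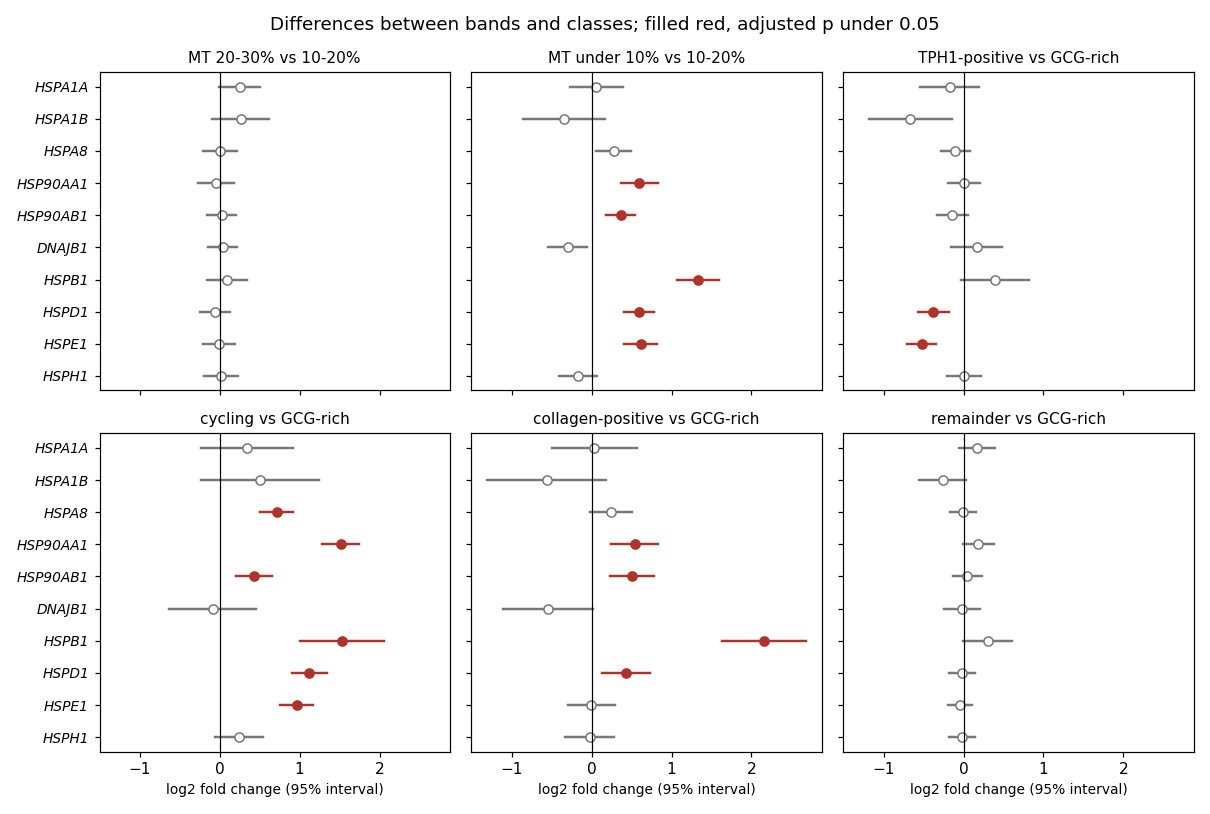
Log2 difference of each gene (points) with its 95% interval (lines) after TMM scaling for 6 comparisons, 2 of mitochondrial bands and 4 of cell classes; filled red marks an adjusted p under 0.05. HSPA1A, HSPA1B, DNAJB1 and HSPH1 are filled in none of the panels, HSPB1, HSPD1 and both HSP90 genes are to the right of 0 in the under 10%, cycling and collagen-positive panels, and the 20 to 30% and remainder panels hold no filled point.

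Other genes of protein folding and stress were read from 6 lists of 107 genes. The CCT chaperonin, which folds actin and tubulin in the cytosol, and prefoldin, which hands it substrates, moved the most: 12 of 14 genes were higher and 1 lower in cycling than in GCG-rich cells, and the median log2 difference was 1.21 against -0.18 over all genes. CCT2, a subunit of that ring, rose from 80.4, 79.8 and 96.7 CPM to 386, 283 and 419 CPM (1.73 ± 0.12, adjusted p = 1.7e-11), and TCP1, another subunit, from 45.1, 42.1 and 54.9 CPM to 265, 218 and 178 CPM (1.69 ± 0.18). The gene called lower was PFDN5 (-0.40 ± 0.12), and with plain totals 13 were higher and 0 lower. In collagen-positive cells 10 of 14 were higher and 0 lower (median 0.59, all genes -0.21), and in TPH1-positive cells 1 was higher, CCT5 (0.32 ± 0.11), and 1 lower, PFDN5 (-0.50 ± 0.10), against 9 and 0 with plain totals. All 14 were higher in the band under 10% (median 0.68), and 1 of 14 was within cells of at least 5% GCG.

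Co-chaperones of the cytosol were mixed. In cycling cells 8 of 29 tested were higher and 4 lower (median 0.37, all genes -0.18), that is near the 21.6% and 23.2% of all genes for the higher ones and below it for the lower ones, and with plain totals 17 and 2. PTGES3, the Hsp90 co-chaperone p23, was among the higher ones, at 560, 291 and 489 CPM against 147, 140 and 161 CPM (1.28 ± 0.13, adjusted p = 9.27e-09); it was named after its value was seen. CRYAB, a small heat shock protein related to HSPB1, had the greatest differences of the lists and varied most between libraries. It stood at 0.315, 0 and 8.15 CPM in GCG-rich cells (6, 0 and 119 UMIs), at 673, 8.07 and 3041 CPM in cycling cells (239, 1 and 1125 UMIs) and at 33.5, 121 and 2489 CPM in collagen-positive cells (5, 16 and 2363 UMIs). Replicate 3 was the highest each time and replicate 2 of the cycling class held 1 UMI. The fitted differences were 8.66 ± 0.41 (replicates 1 and 3) and 8.02 ± 0.73. HSF1 and BAG3 did not pass in any of the 7 comparisons made, and HSF2 passed in TPH1-positive cells, where it was higher by 0.66 ± 0.20 (adjusted p = 0.0182).

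Chaperones of the endoplasmic reticulum fold secreted proteins and rise with the unfolded protein response. In TPH1-positive cells 10 of 19 were lower and 0 higher (median -0.40, all genes -0.02); with plain totals 5 were lower and 4 higher, and the median was 0.08 where that of all genes was 0.46. Among those lower with TMM were PDIA6, a disulfide isomerase, at 105, 142 and 97.1 CPM against 171, 174 and 196 CPM (-1.22 ± 0.12), CRELD2 (-1.04 ± 0.16), HSP90B1 (-0.61 ± 0.11) and HSPA5, the BiP gene (-0.38 ± 0.10). In CPM, HSPA5 was at 244, 306 and 254 against 236, 228 and 268, higher in replicates 1 and 2 and lower in replicate 3. In cycling cells 8 were higher and 3 lower (all genes 21.6% and 23.2%), with PDIA4 at 1.99 ± 0.23 and HERPUD1 at -1.35 ± 0.26, and in collagen-positive cells 8 were higher and 3 lower (all genes 23.1% and 31.2%), led by SERPINH1, the collagen chaperone, at 188, 318 and 203 CPM against 8.56, 6.12 and 7.74 CPM (4.52 ± 0.22). Of the mitochondrial chaperones and proteases, 0 of 14 were higher in cycling cells and 2 lower, TRAP1 (-1.21 ± 0.27) and LONP1 (-0.84 ± 0.28), which turned to 4 higher and 1 lower with plain totals. HSPA9, the mitochondrial Hsp70, differed by -0.0029 ± 0.15.

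Immediate early genes, the transcripts that dispersal is known to raise together with heat shock genes, were mostly lower in cycling cells. There 10 of 16 were lower and 1 was higher (median -1.20, all genes -0.18), and with plain totals 8 and 2. BTG2 was at 56.3, 64.6 and 35.1 CPM against 201, 118 and 336 CPM (-3.00 ± 0.24), and FOS at 121, 32.3 and 395 CPM against 388, 129 and 454 CPM (-1.18 ± 0.20, adjusted p = 4.01e-05). FOS in GCG-rich cells was lowest in replicate 2, where HSPA1A was highest. In collagen-positive cells 7 of 16 were lower and 3 higher (all genes 31.2% and 23.1%), IER3 the most (3.04 ± 0.21), and under 10% mitochondrial share 8 were lower and 2 higher (all genes 15.3% and 20.6%). Of the ubiquitin and oxidative stress list, PRDX1, a peroxiredoxin, was at 481, 452 and 557 CPM in cycling and at 550, 537 and 589 CPM in collagen-positive cells, against 49.9, 57.1 and 74.4 CPM in GCG-rich cells (2.59 ± 0.13 and 2.85 ± 0.14). In the 20 to 30% band none of the genes of the 6 lists passed in edgeR over all cells, and within cells of at least 5% GCG 1 immediate early gene was lower.

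**Figure D4:**
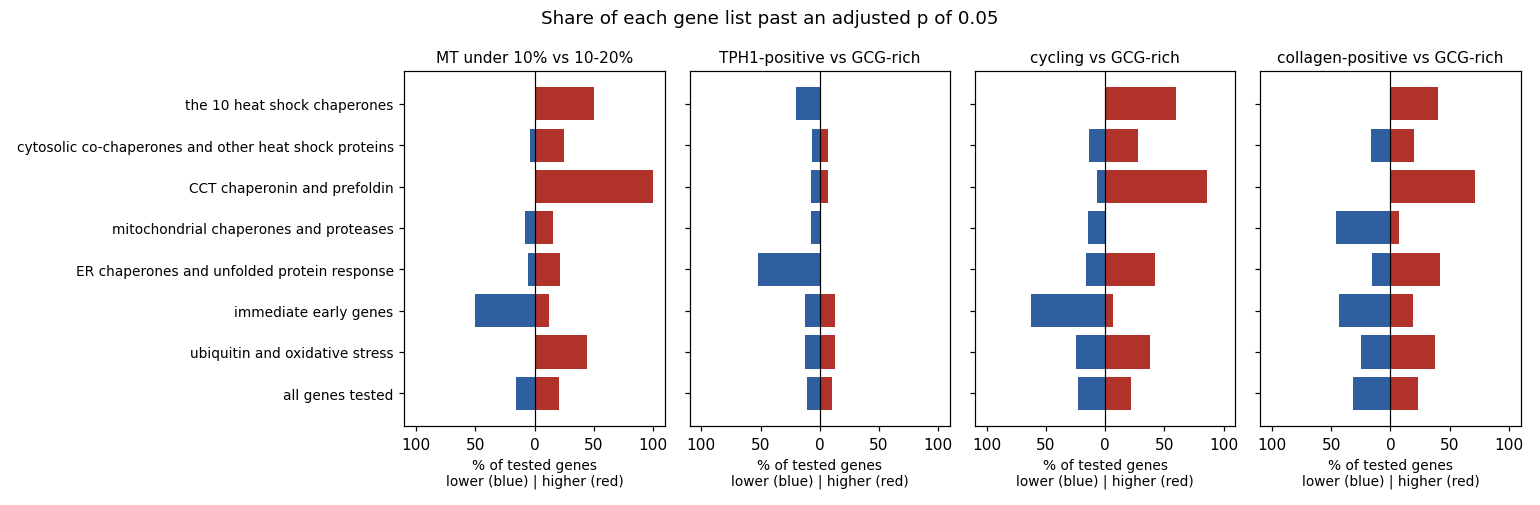
Share of the tested genes of each list (x axis, %) that were higher (red, right) or lower (blue, left) at an adjusted p under 0.05, for 4 comparisons, with all genes tested in the bottom row. In the CCT and prefoldin list 14 of 14 genes are higher under 10% and 12 of 14 in cycling cells, and the lists of the endoplasmic reticulum and of immediate early genes extend to the left in TPH1-positive and cycling cells, respectively; with plain totals the former has 4 higher and 5 lower.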

How the data were processed

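RNA was measured in 3 libraries of dispersed SC-A cells with 10x Genomics 3' v3 kits, per the labels. The authors deposited raw UMI counts per gene and barcode, made with Cell Ranger 4.0.0 against GRCh38 per the submitters' processing notes; the annotation version is not given in the sources used here, and no normalization was applied. Barcodes with at least 1000 genes were kept. UMIs were summed per library and band or class, with at least 10 cells a sum, and tested with edgeR 4.0.16 (quasi-likelihood, TMM, filterByExpr, library as block, two-sided, Benjamini-Hochberg over all genes tested, threshold 0.05; R 4.3.3). Each SE was taken from the fold change and its F statistic, and 95% intervals span 1.96 SE either way. They are narrower than the F test allows. For HSPA1A under 10% within cells of at least 5% GCG, the interval was -0.859 to -0.0037 at an unadjusted edgeR p of 0.0551. Only replicate 3 had 10 collagen-positive cells, so that class was tested on sums of at least 5 cells; this, the remainder comparison and cycling against remainder were added after seeing the data. Fold changes are relative to TMM scaling. Cells compared were in 1 library, hence the block. Scrublet (scanpy 1.11.5) marked 7, 14 and 8 doublets, which were kept and left out in an alternative; cells that met several criteria (13, 12 and 29) entered no class. The fits were first tested on simulated data with known log2 changes of 1 and 2. For the 20 to 30% band, 79 and 96% of these were recovered. In cycling cells 23 and 62% were recovered, and in collagen-positive cells 40 and 70%, both against GCG-rich cells. A gene that did not pass in these classes may thus still differ. Named genes are the 10, HSF1, HSF2, BAG3, HSPA6, HSPA5, HSP90B1, HSPA9 and FOS, and up to 3 called genes per list with the greatest absolute change. The genes and lists were chosen with earlier results of these data known. Alternatives were DESeq2 1.42.0, plain totals, other filters and thresholds, and leaving out libraries. Counts of UMIs limit precision: intervals of shares cover counting error only.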

Additional observations from a re-analysis of the deposited data

Results flagged for a closer look

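Barcodes with fewer than 1000 genes entered no comparison and also held chaperone transcripts. Over such barcodes the 10 genes summed to 613, 715 and 477 CPM in replicates 1, 2 and 3, against 2172, 2393 and 3008 CPM in barcodes with at least 1000 genes. The series has no control library to set them against, and whether they are free RNA or cells of few genes was not tested.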

How the results depend on the processing

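Of 940 alternative values of single genes, 878 kept their direction and side of the threshold, 30 lost a call, 24 gained one and 8 reversed; 85 further values that passed in neither setting changed sign. The 8 came with plain totals: against GCG-rich cells, HSPA8 (0.39), HSP90AB1 (0.35), HSPD1 (0.11) and HSPH1 (0.48) in TPH1-positive cells and HSPA8 (0.30), HSPD1 (0.29), HSPE1 (0.26) and HSPH1 (0.29) in the remainder.

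Among the 10 genes, plain totals called 6 higher and 0 lower in TPH1-positive cells and 8 higher in the remainder. Without the replicate block 3 were higher under 10% mitochondrial share and 1 lower in TPH1-positive cells, and with the class irrespective of GCG 1 was lower there. Within cells of at least 5% GCG 0 were higher under 10%; unfiltered, 1 was lower there (DNAJB1). Stricter thresholds gave 1 lower in collagen-positive cells (DNAJB1), and the remainder fitted with GCG-rich cells alone gave 2 higher. Leaving out a library gave 3 to 6 higher under 10%, 0 to 1 higher and 1 to 2 lower in TPH1-positive cells, and 2 to 4 higher in collagen-positive cells, fewest without replicate 3; a lone cycling sum was taken to vary like the other sums.

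Over all genes, the band of 20 to 30% gave 17 higher and 14 lower with DESeq2, 7 and 2 with plain totals, 37 and 144 unfiltered, 13 and 3 from 2000 genes, 50 and 13 at 5% GCG or more, 0 lower without the replicate block, and 0 to 3 higher and 0 to 13 lower without a library. Under 10%, 1340 were lower with plain totals, 3210 unfiltered, and 260 higher and 74 lower at 5% GCG or more; without a library 1517 to 2789 were higher and 766 to 2309 lower. In TPH1-positive cells plain totals gave 5330 higher and 557 lower, sums of at least 5 cells 918 higher, and 10 to 20% mitochondrial share in such sums 864 higher and 991 lower. In cycling cells plain totals gave 1775 lower, that band 1140 higher and 914 lower, and leaving out a library 1968 to 3025 lower. In collagen-positive cells that band gave 2139 lower, and leaving out a library 1311 to 2716 higher and 1472 to 2980 lower. In the remainder plain totals gave 5317 higher and 53 lower, DESeq2 103 lower, no replicate block 67 lower, irrespective of GCG 139 lower, 10 to 20% mitochondrial share 613 higher, and leaving out a library 603 to 772 higher and 165 to 330 lower. Cycling against the remainder gave 1883 lower with DESeq2, 1828 fitted alone, and 1703 to 2472 higher and 1626 to 2730 lower without a library. The cause was not tested. Depth limits the inducible genes most, with 2 to 22 UMIs of HSPA1A and HSPA1B per cycling sum. Cycling and collagen-positive cells of 10 to 20% mitochondrial share could not be fitted in sums of at least 10 cells. Added after seeing the data were sums of at least 5 cells, that band with them, and the remainder comparisons.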
